A study of Mus musculus with 6 samples.

Results

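The genes of heterotrimeric G proteins and of the regulators of G protein signalling (RGS) were followed in 6 RNA-Seq libraries of long-term chronic myelogenous leukaemia (LT-CML) stem cells from mice. The members were taken by gene name from the protein-coding rows of the deposited table of FPKM (fragments per kilobase of transcript, scaled to the fragments mapped in each library). They were all alpha subunit genes (Gna), the beta subunit genes Gnb1 to Gnb5, the gamma subunit genes (Gng) and the numbered Rgs genes. This gave 54 genes, of 22380 protein-coding and 36976 rows in all. They comprised 16 alpha, 5 beta and 12 gamma subunit genes and 21 RGS genes.

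The study asked how loss of Gdpd3, a lysophospholipase D, changes CML stem cells, and these libraries addressed its effect on their transcripts. Both groups were C57BL/6 tet-CML mice, that is animals carrying both the SCL-tTA and the TRE-BCR-ABL1 transgene, in which SCL-tTA, active in blood stem and progenitor cells, switches on the BCR-ABL1 oncogene once doxycycline (Dox) is taken out of the drinking water. Dox was withdrawn 5 weeks after birth, and the cells were collected 5 weeks later. The Gdpd3+/+ group had intact Gdpd3, and the Gdpd3-/- group carried a 5-base deletion early in its coding sequence, made by genome editing. LT-CML stem cells were sorted from bone marrow as CD150+CD48-CD135-Lineage-Sca-1+cKit+ cells. Each genotype gave 3 libraries of pooled animals, replicates 1, 2 and 3 for Gdpd3+/+ and replicates 5, 6 and 7 for Gdpd3-/-. The donors were 22 male and 12 female mice for Gdpd3+/+, and 5 of each sex for Gdpd3-/-. How the animals were divided among the libraries is not given in the sources used here, so the p-values below measure only the spread between these samples.

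A heterotrimeric G protein carries the signal of a seven-pass receptor into the cell. The receptor makes the alpha subunit exchange GDP for GTP, after which alpha and the beta-gamma pair part and each act on effectors such as adenylyl cyclase and phospholipase C beta. RGS proteins speed up the hydrolysis of GTP by the alpha subunit and so end the signal. In blood stem cells and leukocytes, signals through Gi proteins are known above all for chemokine-guided migration and retention.

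The ends of the coding sequences hold the lipid anchor signal of gamma subunits. They also hold the pertussis toxin site of Gi family alpha subunits other than Gnaz. These ends are shown here because the genes compared below fall into groups by them. A gamma subunit ends in a prenylation signal of 4 codons that begins with cysteine. Where the last codon is for leucine the cysteine receives a geranylgeranyl group, and where it is for serine a farnesyl group. The last 45 coding bases before the stop codon of the 8 gamma genes with a mean of at least 1 FPKM are printed 5′ to 3′ from the GENCODE M21 transcripts (GRCm38), with the prenylation signal in capitals.
Gng5, chr3:146503338-146503382, plus strand: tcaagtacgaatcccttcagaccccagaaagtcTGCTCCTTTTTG
Gng10, chr4:59039305-59039349, plus strand: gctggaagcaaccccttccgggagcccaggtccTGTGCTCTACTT
Gng12, chr6:67017542-67017586, plus strand: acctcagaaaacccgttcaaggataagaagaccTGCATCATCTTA
Gng2, chr14:19875810-19875854, minus strand: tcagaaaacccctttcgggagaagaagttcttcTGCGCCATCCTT
Gng3, chr19:8838146-8838190, minus strand: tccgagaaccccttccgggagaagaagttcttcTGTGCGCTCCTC
Gng13, chr17:25718985-25719029, plus strand: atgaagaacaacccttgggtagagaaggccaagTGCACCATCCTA
Gng11, chr6:4008113-4008157, plus strand: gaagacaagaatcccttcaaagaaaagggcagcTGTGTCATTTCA
Gngt2, chr11:95845561-95845605, plus strand: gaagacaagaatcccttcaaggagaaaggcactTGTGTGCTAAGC
All 8 began the signal with a cysteine codon. Gng11 and Gngt2 ended in a serine codon and the other 6 in a leucine codon. Gng11 and Gngt2 shared 34 of these 45 bases, whereas Gng5 and Gng12 shared 21. Gng2 and Gng3 were the closest pair, with 38 bases in common.

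In alpha subunits of the Gi family, a cysteine in the position 4 codons from the end is the residue that pertussis toxin modifies. The last 33 coding bases of 4 alpha genes are printed from the same source with that codon in capitals, to set Gnai2 and Gnai3, which carry most of the alpha signal below, beside a Gi family member without the cysteine (Gnaz) and the stimulatory subunit (Gnas).
Gnai2, chr9:107615638-107615670, minus strand: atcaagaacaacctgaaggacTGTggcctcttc
Gnai3, chr3:108109425-108109457, minus strand: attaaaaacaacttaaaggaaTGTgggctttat
Gnaz, chr10:75015177-75015209, plus strand: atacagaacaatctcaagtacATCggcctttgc
Gnas, chr2:174346353-174346385, plus strand: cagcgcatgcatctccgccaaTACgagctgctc
Of the 12 alpha genes with a mean of at least 1 FPKM, 11 were read in this way and Gnal was left out. Among the 11, Gnai2, Gnai3 and Gnat2 had the cysteine codon and 8 did not.

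In the series as a whole, depth on genes was 4.98 to 6.28 gigabases in Gdpd3+/+ and 2.13 to 3.64 gigabases in Gdpd3-/-. It was worked out from the FPKM values as covered bases, since a count of reads was not used here, and it limits the low values of Gdpd3-/- most. Gdpd3 itself had 7.30, 3.29 and 2.95 in Gdpd3+/+ and 0.110, 0.0129 and 0.681 in Gdpd3-/- (FPKM, in the order of the replicate numbers, as in all such lists below). A deletion of 5 bases leaves nearly all of the transcript countable, so this level does not read the allele itself. Its difference was -4.005 (95% interval -5.85 to -2.16, adjusted p = 0.0588) on the log2 scale. The exact two-sided permutation test gave p = 0.1, the smallest that 3 libraries against 3 allow. The sort-positive genes Slamf1, Ly6a and Kit were present in all libraries and overlapped between the genotypes, while the 7 genes of the sort-negative list (such as Cd48 and Flt3) summed to 109.6 to 142 in Gdpd3+/+ and 146 to 183 in Gdpd3-/- (FPKM). Across the 24689 genes tested the median log2 fold change (Gdpd3-/- over Gdpd3+/+) was 0.24, and it moved to 0.050 after scaling by a trimmed mean of log ratios (TMM) and to -0.0063 after quantile normalization, so directions are read below against that shift. Of the 422 genes called, 270 were higher and 152 lower in Gdpd3-/-. The split turned to 118 higher against 252 lower with TMM scaling, and to 119 against 206 with quantile normalization.

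None of the G protein and RGS genes passed the test across all genes. Signal above 0 was listed for 52 of the 54 members in at least 1 library, and Gng4 and Rgs21 were listed at 0 throughout. Of the 54, 45 had a mean of at least 0.05 FPKM and were tested, 33 had at least 1 FPKM and 18 at least 10 FPKM. Limma on log2(FPKM + 0.1) with Benjamini-Hochberg adjustment over all genes called 0 of the 45 members at an adjusted p under 0.05, where it called 1.71% of all genes tested. The lowest adjusted p among members was 0.0799, for Gng12. Among the 45, 7 had a mean under 0.05 FPKM in 1 genotype and so met the filter only through the other, namely Gnao1, Gnat3, Rgs7, Rgs8 and Rgs13 through Gdpd3-/- and Gnb3 and Rgs4 through Gdpd3+/+. Values given for them below carry no test. At an unadjusted p under 0.05, 11 of the remaining 38 members were higher and 2 lower in Gdpd3-/-, beside 17.5% and 6.24% of all genes with both genotype means at 0.05 FPKM or more. Over all 45 the counts were 12 and 3, beside 16.5% and 5.76% of all genes tested. With TMM scaling 8 of the 45 were higher and 6 lower, beside 2203 and 2696 of the 24689 genes tested. With quantile normalization 6 of the 45 were higher and 6 lower, beside 2259 and 2507 of those genes.

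The genotypes nevertheless stood apart for many members in the plain order of the libraries. In 14 of the 38 every Gdpd3-/- library lay above every Gdpd3+/+ library, and in 2 every one lay below, beside 24.0% and 8.85% of all genes with both genotype means at 0.05 FPKM or more. With the 7 others included the counts were 16 and 4 of 45, beside 23.5% and 8.27% of all genes tested. Among genes with a mean of at least 1 FPKM, the share was 48.5% of 33 members and 38.4% of 15103 genes. The difference in share was not tested. The median log2 fold change of the members was 0.15, below that of all genes, and 21 of the 45 lay above the all-gene median. By class the median was 0.13 for alpha, -0.15 for beta, 0.37 for gamma and 0.33 for RGS genes. Without the 7 members that met the filter through 1 genotype, the median was 0.13 for the 38, 0.13 for alpha, 0.0016 for beta and 0.21 for RGS genes, beside 0.14 for all such genes.

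One library weighed heavily on these calls. Without Gdpd3-/- replicate 7, limma called 5 of the 38 members with both genotype means at 0.05 FPKM or more in that fit. They were Gng5, Gng11, Gng12, Gng7 and Rgs5. Of all such genes 14.2% were called, so the share of members was near the background. Without Gdpd3-/- replicate 6 limma called 1 of 44 members, Rgs1, beside 1.94% of all genes. Without replicates 5 and 6 together, an alternative chosen after seeing the data, it called 4 of 41 (Rgs1, Rgs2, Gng5 and Gng10), beside 10.2% of all genes. Leaving out any other single library left 0 members called by limma, in fits that called only 0 to 187 of 23727 to 24887 genes. At an unadjusted p under 0.05 those fits held 8 to 12 of 44 to 46 members, beside 3238 to 5626 of all genes.

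**Figure D1:**
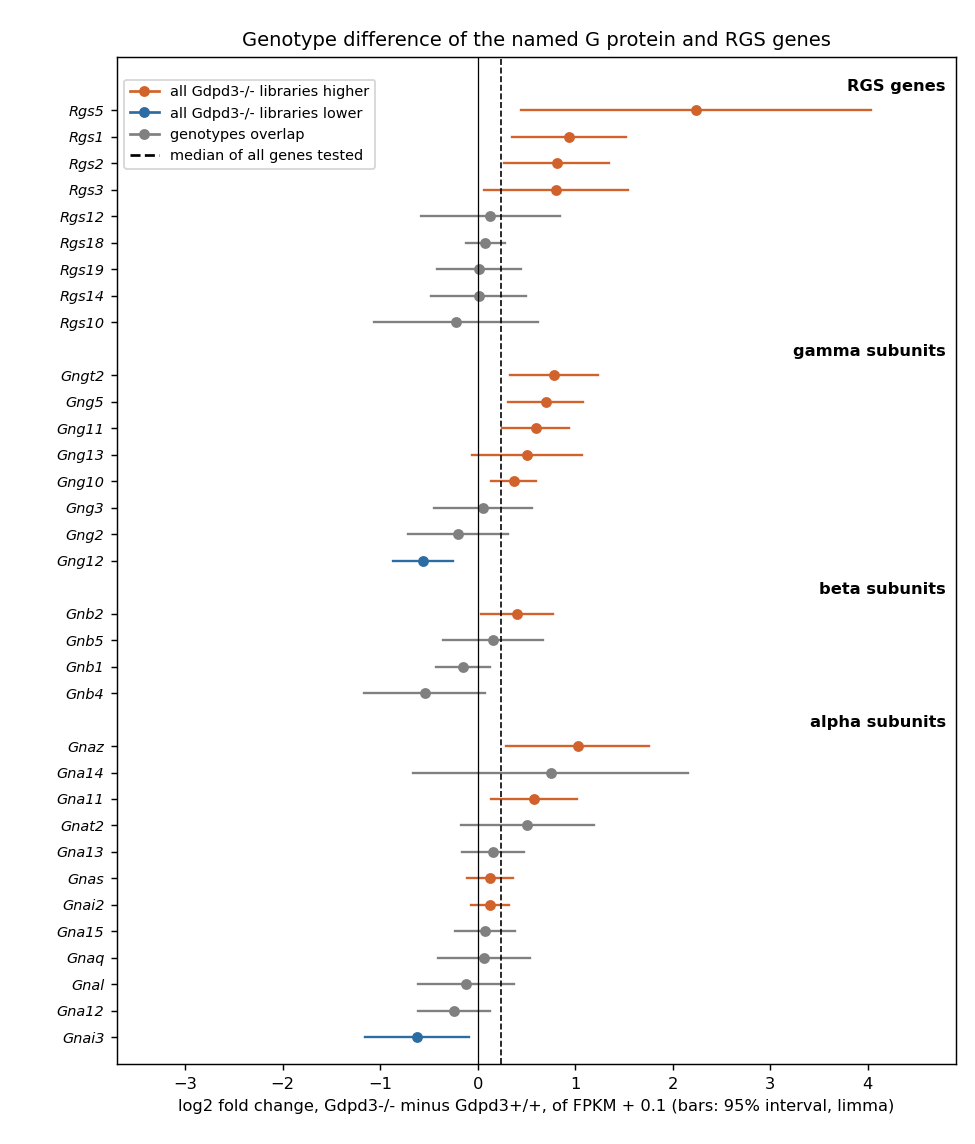
The log2 fold change of FPKM + 0.1 (x axis, Gdpd3-/- minus Gdpd3+/+) of the 33 named members with both genotype means at 0.05 FPKM or more, with 95% intervals from limma, grouped by class. The dashed line is the median of all genes tested, 0.24, and orange and blue mark members whose genotypes did not overlap. The intervals of Gnai3, Gnaz, Gna11, Gnb2, Gng5, Gng10, Gng11, Gng12, Gngt2, Rgs1, Rgs2, Rgs3 and Rgs5 lie off 0 although none passed the adjusted test.

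Among the alpha subunits, which bind and hydrolyse GTP, the Gi family supplied most of the transcript in both genotypes. Gnai2 was the most abundant, with 273, 280.1 and 263 in Gdpd3+/+ and 303, 294 and 292 in Gdpd3-/- (FPKM). Every Gdpd3-/- library lay above every Gdpd3+/+ library, but the log2 fold change was only 0.13 (95% interval -0.074 to 0.32, adjusted p = 0.414), below the all-gene median, and it turned to -0.086 under TMM scaling and -0.087 under quantile normalization. Gnai3, which encodes a closely related inhibitory subunit, had 93.5, 84.6 and 81.8 in Gdpd3+/+ and 39.7, 60.6 and 73.6 in Gdpd3-/- (FPKM). All 3 Gdpd3-/- libraries were lower, with replicate 5 the lowest and replicate 7 nearest to Gdpd3+/+. Its log2 fold change was -0.62 (95% interval -1.15 to -0.092, adjusted p = 0.171), and it was negative under both scalings (-0.83 and -0.78). Without Gdpd3-/- replicate 7 its adjusted p was 0.0532, and it reached 0.441 when another library was left out.

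Gnai2 took a larger share of all alpha FPKM in Gdpd3-/-. Its share was 57.7, 58.7 and 58.7 in Gdpd3+/+ and 66.1, 62.9 and 60.9 in Gdpd3-/- (percent), and that of Gnai3 was 19.8, 17.7 and 18.3 in Gdpd3+/+ and 8.66, 13.0 and 15.3 in Gdpd3-/- (percent). Neither share overlapped between the genotypes. The sum over the 8 Gi family genes did overlap, at 362 ± 12.4 in Gdpd3+/+ and 360.4 ± 10.4 in Gdpd3-/- (FPKM, mean ± SD, n = 3), and so did the sum over all 16 alpha genes, at 466 ± 16.0 in Gdpd3+/+ and 469 ± 10.6 in Gdpd3-/- (FPKM).

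Gnaz encodes the Gi family member that lacks the pertussis toxin site and is known from platelets and neurons. Its level was 1.19, 1.90 and 1.12 in Gdpd3+/+ and 3.26, 3.18 and 2.33 in Gdpd3-/- (FPKM), higher in every Gdpd3-/- library. The fitted log2 fold change was 1.03 (95% interval 0.29 to 1.76, adjusted p = 0.122). Gnat2, the cone transducin, had 1.43, 1.89 and 1.52 in Gdpd3+/+ and 2.82, 2.48 and 1.78 in Gdpd3-/- (FPKM), and the genotypes overlapped at replicates 2 and 7. Gnat2 lies 5.85 kilobases from Gnai3 on the opposite strand (mm9). Gnao1, the main alpha subunit of neurons, was low in every library, with 0.0178, 0 and 0.0144 in Gdpd3+/+ and 0.0484, 0.214 and 0.0879 in Gdpd3-/- (FPKM), and each Gdpd3-/- library lay above each Gdpd3+/+ library.

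The Gq family, which acts on phospholipase C beta, showed 1 member out of 4 without overlap. Of all genes with both genotype means at 0.05 FPKM or more, 24.0% were higher and 8.85% lower in every Gdpd3-/- library. Gna11 had 5.36, 4.89 and 4.09 in Gdpd3+/+ and 6.76, 8.30 and 6.46 in Gdpd3-/- (FPKM). Each Gdpd3-/- library was higher, with a log2 fold change of 0.58 (95% interval 0.13 to 1.02, adjusted p = 0.138), or 0.34 above the all-gene median. Gnaq, whose last 33 coding bases match those of Gna11 at 31, had 4.754, 4.39 and 4.55 in Gdpd3+/+ and 5.70, 4.91 and 3.88 in Gdpd3-/- (FPKM), and its genotypes overlapped. The blood-restricted Gna15 was the most abundant of the family, with 26.2, 24.5 and 21.5 in Gdpd3+/+ and 28.2, 23.0 and 24.7 in Gdpd3-/- (FPKM), again overlapping. Gna14 was low and uneven, with 0.463, 1.73 and 1.33 in Gdpd3+/+ and 1.68, 3.25 and 1.07 in Gdpd3-/- (FPKM).

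The stimulatory subunit Gnas, which activates adenylyl cyclase, had 19.6, 21.6 and 21.1 in Gdpd3+/+ and 23.4, 22.6 and 22.1 in Gdpd3-/- (FPKM). The libraries did not overlap, yet the log2 fold change of 0.13 (95% interval -0.11 to 0.36, adjusted p = 0.483) lay below the all-gene median and was -0.084 under TMM scaling. Of the exon bases of Gnas, 13.1% and 8.83% are shared with genes on the opposite strand, and the library kit does not mark strand. Gnal, the other stimulatory subunit, ranged from 2.39 to 3.18 FPKM, with overlap. The G12 family overlapped in both members. Gna12 had 28.1, 31.9 and 29.4 in Gdpd3+/+ and 24.2, 21.4 and 30.8 in Gdpd3-/- (FPKM) and a log2 fold change of -0.24 (95% interval -0.61 to 0.13, adjusted p = 0.393). Gna13 had 16.4, 16.4 and 15.3 in Gdpd3+/+ and 16.0, 20.8 and 17.3 in Gdpd3-/- (FPKM) and a log2 fold change of 0.16 (95% interval -0.16 to 0.47, adjusted p = 0.503). By mean level Gna12, Gna15, Gnas and Gna13 followed Gnai3 in that order, and over the 6 libraries the range of each of these 4 overlapped that of its neighbour.

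**Figure D2:**
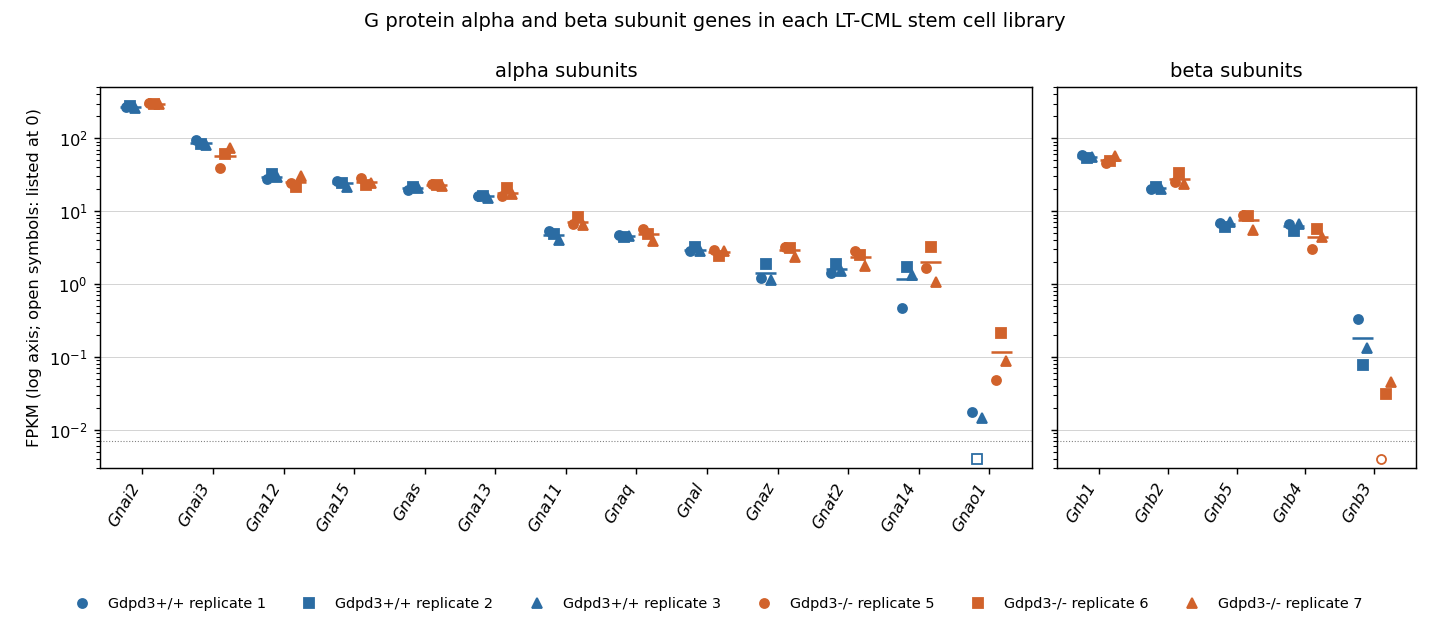
FPKM on a log axis of each named alpha and beta subunit gene in each of the 6 libraries, blue for Gdpd3+/+ and orange for Gdpd3-/-, with a dash at the group mean where no library is at 0. Open symbols under the dotted line are libraries listed at 0; Gnai3 is lower and Gnaz, Gna11 and Gnb2 are higher in all 3 Gdpd3-/- libraries.

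The beta subunits form the stable pair with gamma. Gnb1 was the most abundant, with 59.2, 53.8 and 55.5 in Gdpd3+/+ and 45.4, 49.2 and 57.8 in Gdpd3-/- (FPKM). Gdpd3-/- replicates 5 and 6 were lower and replicate 7 lay within the Gdpd3+/+ range, so the genotypes overlapped (log2 fold change -0.15 ± 0.12, adjusted p = 0.479). Gnb2 had 20.1, 21.3 and 20.4 in Gdpd3+/+ and 25.2, 33.9 and 23.7 in Gdpd3-/- (FPKM). Every Gdpd3-/- library was higher, with replicate 6 the highest. The log2 fold change of Gnb2 was 0.40 (95% interval 0.035 to 0.77, adjusted p = 0.193), and it was 0.19 under TMM scaling and 0.29 under quantile normalization.

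Gnb4 had 6.72, 5.36 and 6.61 in Gdpd3+/+ and 3.02, 5.66 and 4.40 in Gdpd3-/- (FPKM), lower on average in Gdpd3-/- but overlapping through replicates 2 and 6. Gnb5, the divergent beta subunit that pairs with the R7 group of RGS proteins, had 6.89, 6.09 and 7.01 in Gdpd3+/+ and 8.73, 8.49 and 5.50 in Gdpd3-/- (FPKM), and its genotypes overlapped. Gnb3, known from cones, had 0.328, 0.0787 and 0.133 in Gdpd3+/+ and 0, 0.0313 and 0.0453 in Gdpd3-/- (FPKM). All Gdpd3-/- libraries lay below all Gdpd3+/+ libraries, and none of the 6 exceeded 0.328 FPKM. The sum of the beta genes was 89.9 ± 3.29 in Gdpd3+/+ and 90.4 ± 7.57 in Gdpd3-/- (FPKM, mean ± SD, n = 3), so the class as a whole overlapped.

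The gamma subunits, which anchor the complex to the membrane, differed most in level among the 4 classes. Their sum was 213, 213 and 215 in Gdpd3+/+ and 301, 319 and 257 in Gdpd3-/- (FPKM), and the genotypes did not overlap. Gng5 made up most of that difference. It had 80.8, 80.1 and 77.1 in Gdpd3+/+ and 135, 155 and 101 in Gdpd3-/- (FPKM), a 1.64-fold higher mean in Gdpd3-/-, with replicate 6 the highest and replicate 7 the nearest to Gdpd3+/+. Its log2 fold change was 0.70 (95% interval 0.31 to 1.08, adjusted p = 0.0811), or 0.46 above the all-gene median. Without Gdpd3-/- replicate 7 the adjusted p was 0.00853.

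Gng12 differed in the other direction. It had 27.3, 27.4 and 29.7 in Gdpd3+/+ and 17.8, 17.4 and 22.1 in Gdpd3-/- (FPKM), lower in every Gdpd3-/- library. On the log2 scale the difference was -0.56 (95% interval -0.87 to -0.26, adjusted p = 0.0799). It was the 1 member of 45 called under TMM scaling, beside 1.5% of all genes (log2 fold change -0.77, adjusted p = 0.0470). It also passed without Gdpd3-/- replicate 7 (adjusted p = 0.0158), beside 14.2% of all genes. Its adjusted p reached 0.310 when another library was left out. Gng12 was the only gamma gene of at least 1 FPKM whose libraries were all lower in Gdpd3-/-. Its share of the gamma FPKM was 12.8, 12.9 and 13.8 in Gdpd3+/+ and 5.92, 5.45 and 8.61 in Gdpd3-/- (percent).

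Gng11 and Gngt2, both with the serine-ended signal shown above, were higher in every Gdpd3-/- library. Gng11 had 42.7, 44.3 and 47.8 in Gdpd3+/+ and 69.6, 79.7 and 56.2 in Gdpd3-/- (FPKM), with a log2 fold change of 0.59 (95% interval 0.25 to 0.94, adjusted p = 0.0868) and an adjusted p of 0.0161 without Gdpd3-/- replicate 7. Gngt2 had 4.33, 4.24 and 4.79 in Gdpd3+/+ and 6.75, 9.64 and 7.06 in Gdpd3-/- (FPKM), with a log2 fold change of 0.78 (95% interval 0.33 to 1.24, adjusted p = 0.0880). Some 12.5% of the exon bases of Gngt2 are shared with Abi3 on the opposite strand. Together the serine-ended pair gave 49.4 ± 2.87 in Gdpd3+/+ and 76.3 ± 13.0 in Gdpd3-/- (FPKM, mean ± SD, n = 3), and the 6 leucine-ended genes gave 163 ± 1.21 in Gdpd3+/+ and 216 ± 20.9 in Gdpd3-/- (FPKM). Both sums were apart between the genotypes and higher in Gdpd3-/-, with Gng5 the largest part of the leucine-ended sum. Sums do not show the direction of single genes, and a link between the form of the signal and direction was not tested. Within the leucine-ended group Gng5 and Gng10 were higher and Gng12 lower.

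Gng10 had 36.2, 36.5 and 36.5 in Gdpd3+/+ and 49.4, 42.9 and 49.3 in Gdpd3-/- (FPKM). The Gdpd3+/+ libraries lay close together and all Gdpd3-/- libraries were higher (log2 fold change 0.37 ± 0.097, adjusted p = 0.0961). Of its exon bases, 72.0% also belong to the overlapping gene Gm20503 on the same strand, so the level of Gng10 depends on how shared reads were counted. Gng13 had 2.04, 2.37 and 2.07 in Gdpd3+/+ and 3.37, 3.53 and 2.50 in Gdpd3-/- (FPKM), also higher in each Gdpd3-/- library (log2 fold change 0.50 ± 0.24, adjusted p = 0.267), with 51.6% of its exon bases shared with Chtf18 on the opposite strand. Gng2, the gamma subunit often paired with Gnb1, had 15.1, 13.5 and 13.7 in Gdpd3+/+ and 15.2, 8.81 and 13.6 in Gdpd3-/- (FPKM) and overlapped. Gng3, whose exons share 23.4% of their bases with Bscl2, had 2.89, 2.90 and 2.93 in Gdpd3+/+ and 3.59, 2.90 and 2.67 in Gdpd3-/- (FPKM) and overlapped as well. Gng7, named here after its values were seen, had 1.54, 1.18 and 0.953 in Gdpd3+/+ and 0.223, 0.0145 and 1.597 in Gdpd3-/- (FPKM). Replicates 5 and 6 were low and replicate 7 was the highest library of all 6. Without replicate 7 the adjusted p of Gng7 was 0.0394, and it reached 0.606 when another library was left out.

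**Figure D3:**
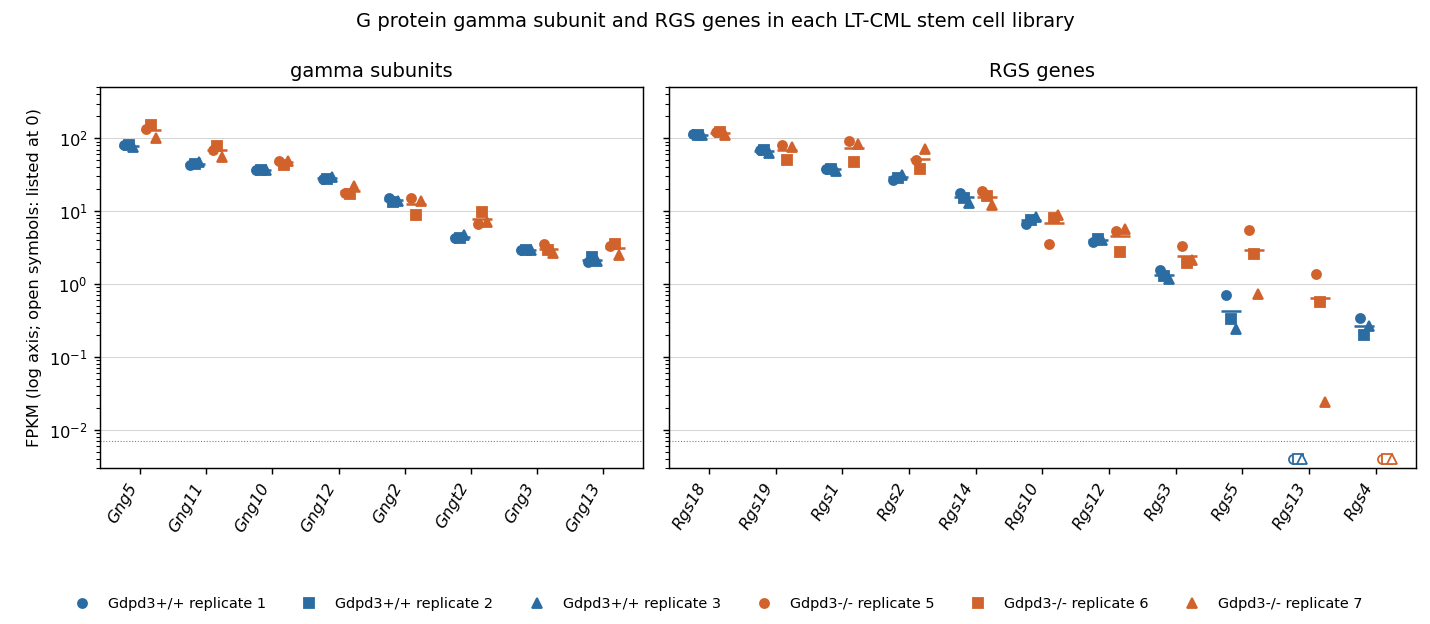
FPKM on a log axis of each named gamma subunit and RGS gene in each of the 6 libraries, blue for Gdpd3+/+ and orange for Gdpd3-/-, with a dash at the group mean where no library is at 0. Gng5, Gng11, Gng10, Gngt2, Rgs1 and Rgs2 are higher and Gng12 lower in all 3 Gdpd3-/- libraries; open symbols mark Rgs13 listed at 0 in Gdpd3+/+ and Rgs4 listed at 0 in Gdpd3-/-.

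The RGS genes were led by the R4 group, the small RGS proteins made of little more than the RGS domain. Rgs18, known from megakaryocytes and other blood cells, was the most abundant RGS gene in both genotypes, with 115, 110.5 and 112 in Gdpd3+/+ and 122, 121 and 113 in Gdpd3-/- (FPKM). The genotypes overlapped at replicates 1 and 7, and the interval of its log2 fold change was -0.12 to 0.27. By mean level Rgs19 came next and then Rgs1 in Gdpd3+/+, while in Gdpd3-/- Rgs1 came before Rgs19. In Gdpd3-/- replicate 6, however, Rgs1 lay below Rgs19, at 47.7 against 50.9 FPKM.

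Rgs1, known for damping chemokine responses in lymphocytes, had 37.9, 38.5 and 36.1 in Gdpd3+/+ and 91.8, 47.7 and 84.5 in Gdpd3-/- (FPKM). All Gdpd3-/- libraries were higher, with replicates 5 and 7 well above replicate 6. The mean was 1.99-fold higher, and the log2 fold change was 0.94 (95% interval 0.35 to 1.52, adjusted p = 0.0958), or 0.70 above the all-gene median. Leaving out 1 library at a time gave limma adjusted p-values from 0.0206 (without Gdpd3-/- replicate 6) to 0.321. Rgs2, which acts mainly on Gq subunits, had 27.0, 28.8 and 31.4 in Gdpd3+/+ and 49.8, 37.5 and 70.8 in Gdpd3-/- (FPKM). Every Gdpd3-/- library was higher, with replicate 7 the highest and replicate 6 the lowest. Its log2 fold change was 0.81 (95% interval 0.27 to 1.35, adjusted p = 0.109).

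Rgs3 had 1.56, 1.28 and 1.18 in Gdpd3+/+ and 3.32, 1.95 and 2.12 in Gdpd3-/- (FPKM), higher in every Gdpd3-/- library (log2 fold change 0.80 ± 0.31, adjusted p = 0.194). Rgs5, best known as a gene of pericytes and smooth muscle, had 0.711, 0.333 and 0.240 in Gdpd3+/+ and 5.51, 2.61 and 0.726 in Gdpd3-/- (FPKM). Replicates 5 and 6 were far above Gdpd3+/+, whereas replicate 7 was barely above the highest Gdpd3+/+ library. The fitted log2 fold change was 2.24 (95% interval 0.44 to 4.03, adjusted p = 0.152). With 1 library left out at a time, the adjusted p of Rgs5 ranged from 0.0297 (without replicate 7) to 0.424. The sum of the endothelial and pericyte genes Pecam1, Cdh5, Kdr, Pdgfrb, Acta2 and Myh11 was 16.0 to 18.2 in Gdpd3+/+ and 22.2 to 28.0 in Gdpd3-/- (FPKM), with 2 of the 6 higher in every Gdpd3-/- library, and their part in the level of Rgs5 was not tested.

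A pair of R4 genes were listed at 0 in a whole group, so neither a fold nor a test is given for them. Rgs13, known from mast cells and germinal centre B cells, had 0 in all 3 Gdpd3+/+ libraries and 1.37, 0.569 and 0.0242 in Gdpd3-/- (FPKM). The level in replicate 7 was close to 0. Rgs4 had 0.337, 0.201 and 0.269 in Gdpd3+/+ and 0 in all 3 Gdpd3-/- libraries (FPKM). At 150 covered bases a read, the Rgs4 values in Gdpd3+/+ stood for approximately 34.7, 26.0 and 34.0 reads, and the Rgs13 values in Gdpd3-/- for 32.0, 22.7 and 0.667. The sum of the mast cell and basophil genes Cpa3, Ms4a2, Fcer1a, Mcpt8, Prss34, Hdc and Gata2 was 149 to 249 in Gdpd3+/+ and 329.8 to 408 in Gdpd3-/- (FPKM), with 3 of the 7 higher and 1 lower in every Gdpd3-/- library, and their part in the level of Rgs13 was not tested.

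Of the 6 R4 genes with both genotype means at 0.05 FPKM or more, 4 (Rgs1, Rgs2, Rgs3 and Rgs5) were higher in every Gdpd3-/- library and 0 were lower in every one. The shares of all such genes were 24.0% and 8.85%. The median log2 fold change was 0.81 for the 6 genes and 0.14 for all such genes, and neither difference was tested. The sum of the R4 genes was 182, 179.7 and 181 in Gdpd3+/+ and 274, 211 and 271 in Gdpd3-/- (FPKM). The remaining 3 groups of RGS genes that were tested held no member without overlap. Rgs19, of the RZ group that acts on Gi and Gnaz subunits, had 68.1, 69.3 and 63.9 in Gdpd3+/+ and 80.4, 50.9 and 75.8 in Gdpd3-/- (FPKM), with Gdpd3-/- replicate 6 below and replicates 5 and 7 above all Gdpd3+/+ libraries. The R12 genes Rgs14, Rgs10 and Rgs12 also act on Gi subunits. Rgs14 had 18.01, 15.2 and 13.1 in Gdpd3+/+ and 18.7, 16.3 and 12.0 in Gdpd3-/- (FPKM). Rgs10 had 6.60, 7.54 and 8.35 in Gdpd3+/+ and 3.56, 8.18 and 8.88 in Gdpd3-/- (FPKM), and Rgs12 had 3.83, 4.14 and 4.02 in Gdpd3+/+ and 5.37, 2.76 and 5.66 in Gdpd3-/- (FPKM). In these genes the Gdpd3-/- libraries spread on both sides of Gdpd3+/+ and the sum of the group overlapped, at 26.9 ± 1.499 in Gdpd3+/+ and 27.2 ± 0.570 in Gdpd3-/- (FPKM, mean ± SD, n = 3). The R7 genes, which need Gnb5 as their partner, summed to no more than 2.71 FPKM in any library. Summed over all 21 RGS genes, the level was 279.7, 276 and 272 in Gdpd3+/+ and 385, 291 and 375 in Gdpd3-/- (FPKM), with no overlap between the genotypes but with Gdpd3-/- replicate 6 close to Gdpd3+/+.

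Position sets some of these genes side by side. Rgs2, Rgs13, Rgs1, Rgs21 and Rgs18 lie in that order on the minus strand at chr1:145846468-146622565 (mm9). Of these neighbours Rgs2 and Rgs1 were higher in every Gdpd3-/- library, as were 24.0% of all genes with both genotype means at 0.05 FPKM or more. Rgs13 was listed at 0 in all Gdpd3+/+ libraries and met the filter only through Gdpd3-/-. Rgs21 was listed at 0 throughout and Rgs18 overlapped. Rgs5 and Rgs4 lie 45.7 kilobases apart on opposite strands of the same chromosome. Rgs5 was higher in every Gdpd3-/- library. Rgs4 was listed at 0 in all Gdpd3-/- libraries and met the filter only through Gdpd3+/+. Gna11 and Gna15 lie 4.498 kilobases apart on the same strand, with Gna11 higher in every Gdpd3-/- library and Gna15 overlapping.

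**Figure D4:**
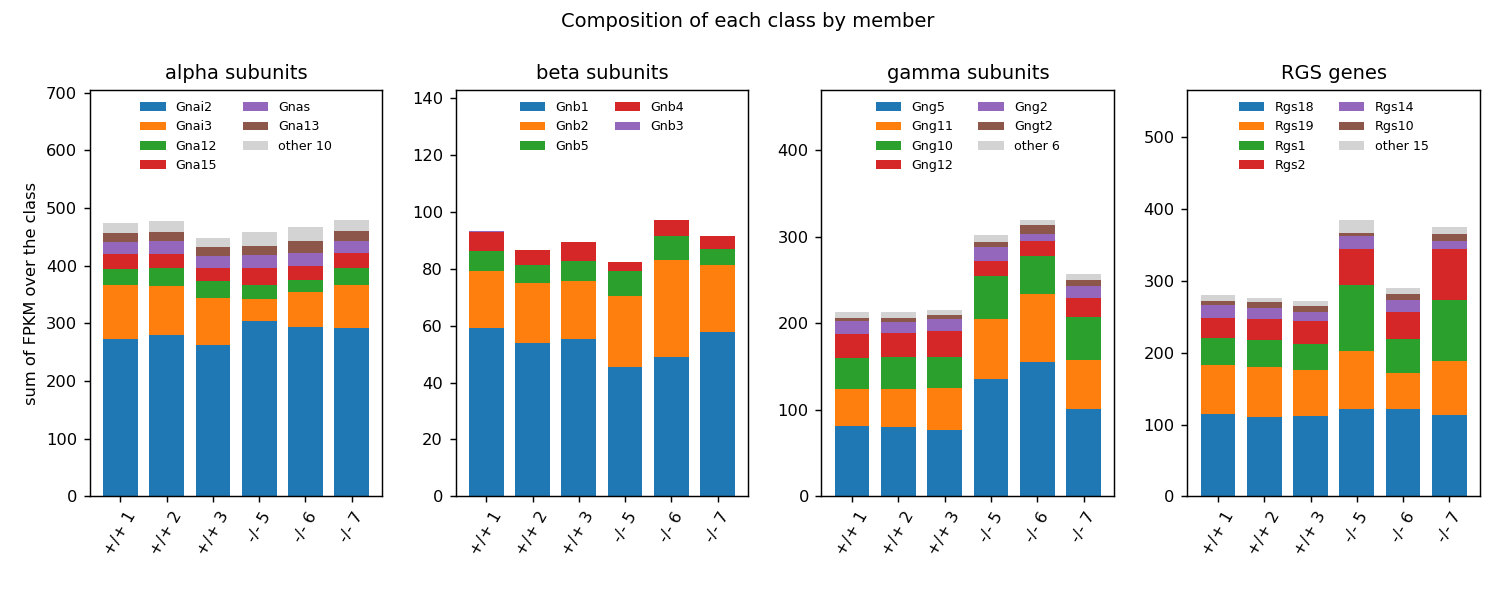
Sum of FPKM in each library (y axis, from 0) for the alpha, beta, gamma and RGS classes, with the 6 most abundant members of each class in colour and the others in grey. The alpha and beta sums overlap between the genotypes, while the gamma sum is 213 to 215 FPKM in Gdpd3+/+ and 257 to 319 FPKM in Gdpd3-/-.

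The 8 members tested but not named by rule were Gnai1, Gnat3, Gng7, Rgs7, Rgs8, Rgs9, Rgs11 and Rgs16. None exceeded 2.54 FPKM in any library. The 9 members under the filter were Gnat1, Gng4, Gng8, Gngt1, Rgs6, Rgs17, Rgs20, Rgs21 and Rgs22, none above 0.159 FPKM in any library. Those 9 genes did not enter the test.

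Because FPKM is per length and a ratio within a library does not depend on its scaling, 5 pairs of members were also set against each other. The pairs were chosen after their values were seen, and their ratios are given without a test. Gnai2 to Gnai3 was 2.92, 3.31 and 3.21 in Gdpd3+/+ and 7.63, 4.85 and 3.97 in Gdpd3-/-. Gng5 to Gng12 was 2.96, 2.92 and 2.59 in Gdpd3+/+ and 7.59, 8.88 and 4.59 in Gdpd3-/-. Both ratios were higher in every Gdpd3-/- library, with replicate 7 the nearest to Gdpd3+/+. Gng11 to Gng12 was 1.57, 1.61 and 1.61 in Gdpd3+/+ and 3.90, 4.58 and 2.54 in Gdpd3-/-. Gnb1 to Gnb2 was 2.94, 2.53 and 2.72 in Gdpd3+/+ and 1.80, 1.449 and 2.44 in Gdpd3-/-, and Rgs18 to Rgs1 was 3.02, 2.87 and 3.10 in Gdpd3+/+ and 1.33, 2.54 and 1.33 in Gdpd3-/-. These last 2 were lower in every Gdpd3-/- library.

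**Figure D5:**
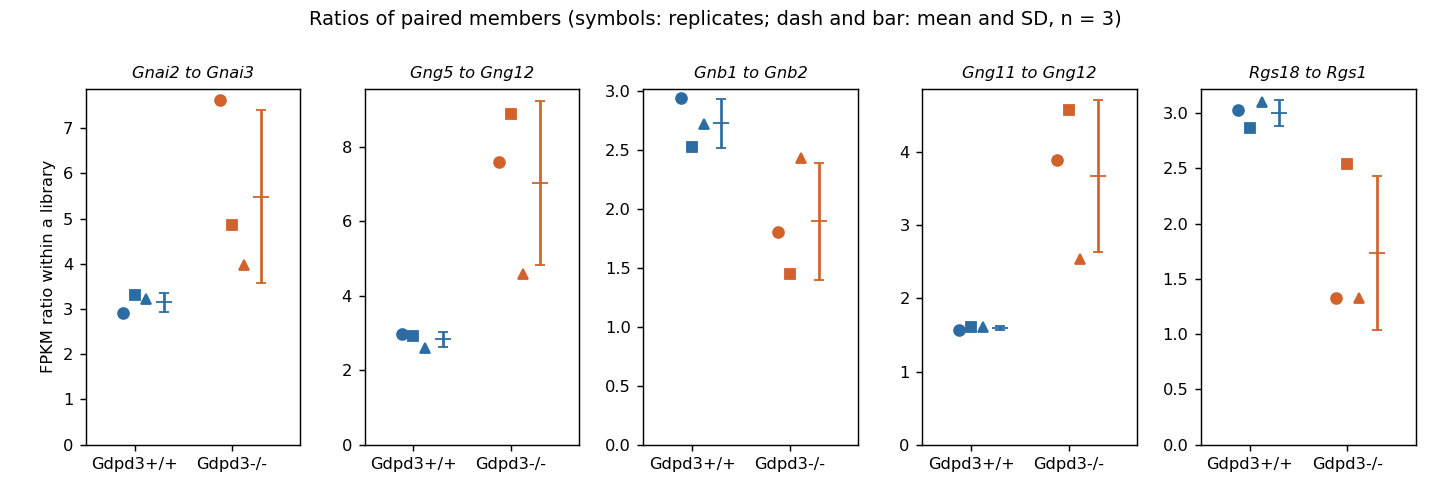
Ratio of FPKM within each library (y axis, from 0) for 5 pairs of members, with symbols for the 3 replicates of each genotype and a dash and bar for the mean and SD. The pairs were chosen after their values were seen, so the lack of overlap in all 5 is not a test. For Gnai2 to Gnai3, Gng5 to Gng12 and Gng11 to Gng12 it follows from the order of the libraries in each gene. Gng5 to Gng12 is 2.83 ± 0.203 in Gdpd3+/+ and 7.02 ± 2.20 in Gdpd3-/-.

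Markers of other cell types also differed between these libraries. In a bulk sample fewer cells of a type and less RNA per cell cannot be told apart. All 15 skeletal muscle genes listed were higher in every Gdpd3-/- library, with sums of 972 to 1439 in Gdpd3+/+ and 2389 to 17965 in Gdpd3-/- (FPKM), the lowest of Gdpd3-/- being replicate 7. All 9 neutrophil granule genes were lower, with sums of 29697 to 32469 in Gdpd3+/+ and 8337 to 13756 in Gdpd3-/- (FPKM). The sum of the platelet genes overlapped, at 314 to 427 in Gdpd3+/+ and 287 to 588 in Gdpd3-/- (FPKM), with 2 of the 12 lower in every Gdpd3-/- library and Gp6 listed at 0 throughout. The erythroid and T cell sums overlapped too, with 2 of 6 erythroid genes lower in every Gdpd3-/- library and 0 of 5 T cell genes apart. The sum of the B and plasma cell genes was 2274 to 2902 in Gdpd3+/+ and 1066 to 1933 in Gdpd3-/- (FPKM), of which Igj, the joining chain of secreted antibodies, gave 1958 to 2551 and 882 to 1692. Of the 6 genes of that list in the table, Igj and Xbp1 were lower and Cd79b higher in every Gdpd3-/- library, and 3 overlapped. The part of these cells in the levels of the G protein and RGS genes was not tested.

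The other genes of the pathway were taken from a list of 76 symbols for effectors, cyclic AMP signalling, receptor desensitization and chaperones of G proteins, of which 72 were in the table and 69 were tested. Limma called 1 of the 69, near the 1.71% of all genes called. It was Pde4b, a phosphodiesterase that breaks down cyclic AMP. Pde4b rose from 13.3, 12.4 and 12.9 FPKM in Gdpd3+/+ to 23.0, 21.4 and 21.8 in Gdpd3-/-. Its log2 fold change was 0.77 (95% interval 0.53 to 1.02, adjusted p = 0.0296). The call was lost without any one Gdpd3+/+ library or Gdpd3-/- replicate 5, with adjusted p-values of up to 0.198. Adcy2, Adcy5, Adcy8 and Axin2 met the filter only through 1 genotype. At an unadjusted p under 0.05, 6 of the other 65 were higher and 6 lower, beside 17.5% and 6.24% of all genes with both genotype means at 0.05 FPKM or more. With those 4 included the counts were 9 and 6 of 69, or 13.0% and 8.70%, beside 16.5% and 5.76% of all genes tested. The median log2 fold change of the 65 was -0.012, below that of all such genes.

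By role, and beside those same shares of 17.5% and 6.24%, the 21 effectors left held 2 higher and 2 lower at an unadjusted p under 0.05, the 21 cyclic AMP genes 2 and 1, the 7 receptor desensitization genes 0 and 2, and the 16 regulators and chaperones left 2 and 1. The 5 most abundant of the list were Gnb2l1, Prkar1a, Grk6, Adrbk1 and Prkar2b. Grk6, a kinase that turns off activated receptors, had 55.3, 59.5 and 54.9 in Gdpd3+/+ and 43.9, 26.6 and 43.2 in Gdpd3-/- (FPKM), lower in every Gdpd3-/- library (log2 fold change -0.61 ± 0.20, adjusted p = 0.148). Adrbk1, the related kinase also called Grk2, had 33.7, 38.1 and 35.3 in Gdpd3+/+ and 45.2, 38.4 and 43.7 in Gdpd3-/- (FPKM), higher in every Gdpd3-/- library (log2 fold change 0.25 ± 0.11, adjusted p = 0.235). That change lay close to the all-gene median of 0.24, and it was 0.036 under TMM scaling and 0.12 under quantile normalization. The cyclic AMP-dependent kinase has regulatory subunits of more than 1 type. Prkar2b had 45.7, 41.5 and 44.3 in Gdpd3+/+ and 30.4, 32.3 and 30.2 in Gdpd3-/- (FPKM), lower in every Gdpd3-/- library (log2 fold change -0.50 ± 0.092, adjusted p = 0.0560). Prkar1a had 92.7, 94.7 and 95.05 in Gdpd3+/+ and 118, 103 and 109 in Gdpd3-/- (FPKM), higher in every one (log2 fold change 0.22 ± 0.089, adjusted p = 0.214). This lay just below the all-gene median, and it was 0.0083 under TMM scaling and 0.033 under quantile normalization. Gnb2l1, a scaffold with the fold of a beta subunit, had 93.6, 101 and 94.9 in Gdpd3+/+ and 116, 133 and 123 in Gdpd3-/- (FPKM), also higher in every Gdpd3-/- library (log2 fold change 0.37 ± 0.092, adjusted p = 0.0912).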

How the data were processed

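RNA-Seq was performed by the authors on 6 libraries of sorted LT-CML stem cells, made with the SMART-Seq v4 Ultra Low Input kit and Nextera XT and read as pairs of 150 bases on a HiSeq. The authors deposited FPKM values per gene. The submitters' processing notes name Trimmomatic, Trim Galore, cutadapt 1.16, STAR 2.6.1a, featureCounts 1.6.1, DESeq2 and the build mm9. A second deposited table holds the authors' own DESeq2 comparison (means, fold changes and p-values) and was not used. The steps of the FPKM values correspond to covered bases and not to whole reads, so no count model was run. The reads given for Rgs4 and Rgs13 are covered bases divided by 150. Depth in covered bases was the scale at which values times length became whole numbers (within 0.05).

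Genes with a mean over the 6 libraries of 0.05 FPKM or more (24689) entered the test. Their log2(FPKM + 0.1) values were fitted by limma 3.58.1 (R 4.3.3), using genotype as the single term and an intensity trend. The Benjamini-Hochberg adjustment covered all genes tested. Log2 fold changes are given ± standard error and understate the change of low genes. Limma was tested on simulated data first. SciPy 1.17.1 was used for the exact permutation test. Other settings tried were no filter, a filter at 1 FPKM, pseudocounts of 0.01 and 1, quantile normalization, TMM scaling that trimmed 30% of M values and 5% of A values, no trend, array weights, leaving out each library and, chosen after seeing the data, leaving out Gdpd3-/- replicates 5 and 6 together. The rule named every member with a mean FPKM of at least 1, an adjusted p under 0.05, or genotypes that do not overlap at a mean FPKM of at least 0.05. Of the pathway list it named called genes and the 5 with the highest mean FPKM. The members and lists were chosen with earlier results of these data known. Positions of genes are in mm9 as deposited, and coding ends were read from GENCODE M21 in GRCm38.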

Additional observations from a re-analysis of the deposited data

How the results depend on the processing

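No paired analysis was possible because the groups share no replicate number. Of 37 named members, 26 kept their direction under every alternative other than the 2 scalings, and the cause of the 22 turns of the other 11 was not tested. TMM and quantile scaling moved the all-gene median from 0.24 to 0.050 and -0.0063, so signs under them are read against that shift. Relative to the all-gene median, 0 of the 37 changed side under TMM scaling and 3 under quantile normalization. Under TMM scaling the log2 fold changes became -0.077 for Rgs12, -0.20 for Rgs14, -0.13 for Rgs18, -0.20 for Rgs19, -0.051 for Gna13, -0.14 for Gna15, -0.086 for Gnai2, -0.14 for Gnaq, -0.084 for Gnas, -0.054 for Gnb5 and -0.15 for Gng3. Under quantile normalization they became -0.083 for Rgs12, -0.086 for Rgs14, -0.12 for Rgs18, -0.15 for Rgs19, -0.031 for Gna15, -0.087 for Gnai2, -0.10 for Gnaq and -0.21 for Gng3. Array weights gave -0.0027 for Rgs14. Leaving out Gdpd3-/- replicates 5 and 6 together gave 0.25 for Rgs10, -0.35 for Rgs14, 0.049 for Gna12, -0.23 for Gnaq, 0.042 for Gnb1, -0.27 for Gnb5 and -0.12 for Gng3. Leaving out 1 library at a time gave -0.46 to 0.19 for Rgs10, -0.051 to 0.45 for Rgs12, -0.13 to 0.19 for Rgs14, -0.11 to 0.22 for Rgs19, -0.0079 to 0.14 for Gna15, -0.060 to 0.21 for Gnaq, -0.36 to 0.032 for Gng2 and -0.062 to 0.14 for Gng3.

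The 0 members called became 1 under TMM scaling (Gng12), 1 without an intensity trend (Rgs4, which met the filter only through Gdpd3+/+), 0 to 6 leaving out 1 library, and 4 of 41 (Rgs1, Rgs2, Gng10 and Gng5) without Gdpd3-/- replicates 5 and 6, beside 10.2% of all genes. The 1 pathway gene called became 2 under both TMM scaling and a pseudocount of 0.01, where 370 and 576 of all genes were called. The pathway count became 3 under both quantile normalization and a filter at 1 FPKM, where 325 and 673 of all genes were called. Leaving out 1 library gave 0 to 8 of 69. The 8 came without Gdpd3-/- replicate 7, beside 14.2% of all genes. They included Adcy2 and Adcy8, which met the filter only through Gdpd3-/-, so that count is not read as a result. The log2 fold change of Gdpd3 passed with the filter at 1 FPKM (-4.005, adjusted p = 0.0481) and lay between -4.79 and -3.39 leaving out 1 library, passing without Gdpd3-/- replicate 7 (adjusted p = 0.0106).

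Of all genes, limma called 422 (270 higher, 152 lower). With a pseudocount of 1 the count was 225, of which 124 were higher and 101 lower. Without a filter it was 213 (125 and 88), and at 1 FPKM or more 673 (471 higher). Dropping the trend left 153 (79 and 74), and array weights 240 (124 higher). The split was 118 against 252 with TMM scaling, and 119 genes were higher after quantile normalization. Leaving out 1 library gave 0 to 3413 (0 to 2364 higher and 0 to 1049 lower), and leaving out replicates 5 and 6 gave 2294 (1896 and 398). The lowest counts, 0, 1 and 21, came without Gdpd3+/+ replicates 1, 2 and 3, and the highest without Gdpd3-/- replicate 7. Depth limits the genes under 1 FPKM most.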
